A study of Homo sapiens with 8 samples.

Results

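RAB proteins are the largest branch of the RAS superfamily of small GTPases. The members described here are the 62 genes whose symbol in the platform annotation is RAB followed by a number and at most 1 letter, out of 18850 genes with a named probe, and they are measured by 88 of the 48798 probes. PC3 is an established line from a human prostate carcinoma. Its cells were transfected with a non-specific control siRNA (4 samples) or with an siRNA against TRPM2-AS, the antisense transcript of the TRPM2 channel gene (4 samples). RNA was collected 48 hours later and hybridised to 1-colour Illumina bead arrays. One cell line was used, no untransfected group is analysed here, and the labels do not say whether the samples of a group were separate cultures, so the p-values measure no more than how far these samples scattered, possibly for technical reasons.

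A RAB protein is a membrane switch. Bound to GTP it recruits effectors (tethers, motors and lipid kinases) that move, dock and fuse vesicles, and after GTP hydrolysis the GDP dissociation inhibitor GDI takes it off the membrane by its prenyl anchors. Each organelle carries its own RAB proteins: RAB1 and RAB2 act between the endoplasmic reticulum and the Golgi, RAB5 on early endosomes, RAB7 on late endosomes and lysosomes, RAB11 on recycling endosomes, and RAB3 and RAB27 in regulated secretion. Many exist as related A and B copies made by separate genes.

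The arrays were compared as 4 control and 3 TRPM2-AS siRNA arrays, since the signal column named as TRPM2-AS siRNA number 2 followed none of the 8 samples (its best Spearman rho was 0.832, with a control sample), whereas the other 7 columns ranked the probes exactly as 1 sample of their own group. Between 13163 and 14318 probes were detected per array. Log2 signals correlated at 0.990 or above within either group and at 0.963 to 0.970 between the groups, across probes, which are not independent replicates. On this same measure, which is unlike the Spearman rho above, the left-out column correlated at 0.984 to 0.987 with the control arrays. With the TRPM2-AS siRNA arrays it correlated at 0.964 to 0.969. The epithelial markers KRT8, KRT18, KRT19 and EPCAM were detected on all 7 arrays; with TRPM2-AS siRNA EPCAM had a log2 fold change of -1.14 (limma adjusted p = 6.35e-06), KRT18 -0.51 (0.0258) and KRT19 -0.44 (0.00836), and KRT8 did not pass. Of 9 blood, endothelial, fibroblast and muscle markers with a probe, 8 were detected on 0 arrays and COL1A1 on all 7, with a log2 fold change of 0.75 (limma adjusted p = 0.000402). The part of these markers in the RAB results was not tested. The luminal prostate markers KLK2 and KLK3 were also detected on 0 arrays. No probe is named for TRPM2-AS in the annotation used, so its depletion was not analysed here.

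Of the 62 RAB genes, 40 were tested, meaning that 4 or more of the 7 arrays detected a probe of the gene (detection p under 0.01). With 4 control and 3 TRPM2-AS siRNA arrays, this filter can admit a gene detected in controls alone. It cannot admit a gene detected in TRPM2-AS siRNA arrays alone, so counts of rises and falls are not on equal terms. Calls are by limma, with Benjamini-Hochberg adjusted p under 0.05 over 9272 genes. With TRPM2-AS siRNA 11 rose (RAB2A by the probe that stands for it, against its other probe) and 11 fell, and 18 did not pass. That is 55.0% of the tested RAB genes, against 56.9% of all tested genes; 27.5% rose and 27.5% fell, against 27.4% and 29.5% in the background, so the share of RAB genes that changed was close to that of genes in general. When detection on 3 arrays sufficed, 13 RAB genes rose and 11 fell of 42 tested, RAB18 and RAB27A being added through TRPM2-AS siRNA arrays alone. At least 2-fold changes were seen in 5 of the 40 (12.5%), against 17.6% of all genes. The median log2 fold change was -0.05 over the 40 and -0.01 over all genes, and the values ran from -2.38 for RAB27B to 1.47 for RAB23. A change of this kind in a culture can come from less RNA per cell or from fewer cells of a kind, which cannot be told apart here.

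**Figure D1:**
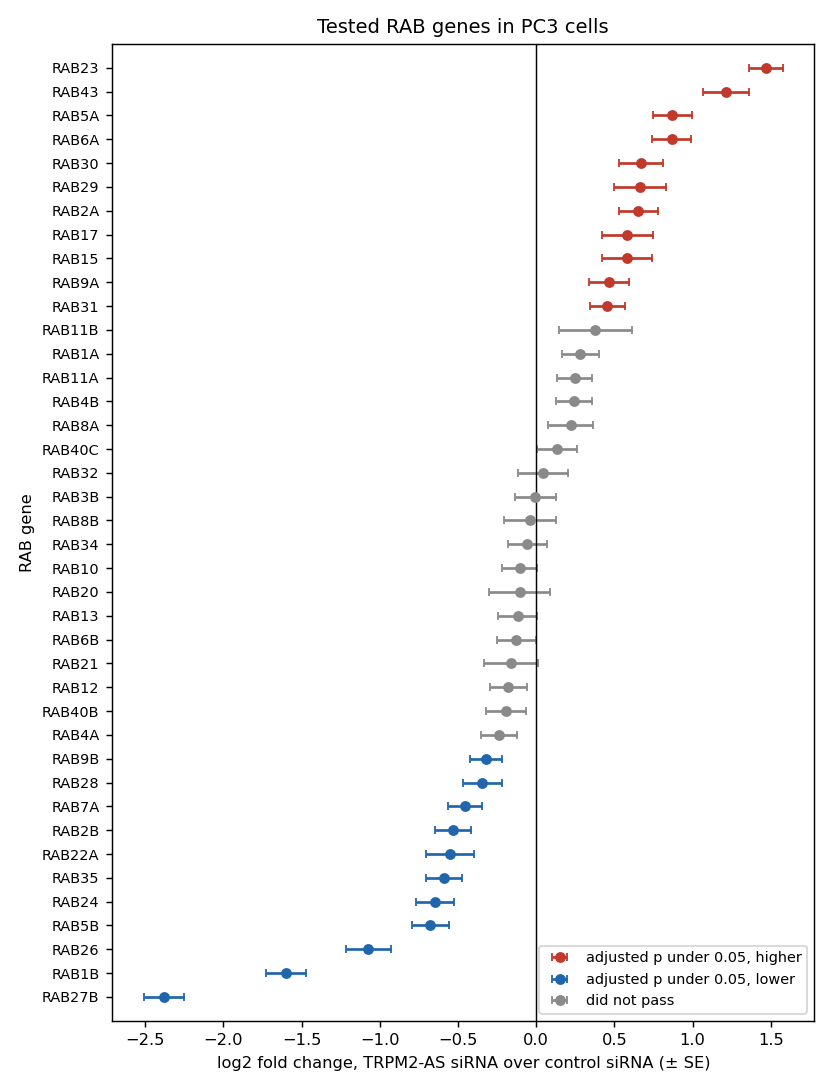
Log2 fold change of each of the 40 tested RAB genes (x axis, TRPM2-AS siRNA over control siRNA, bars are the SE of the fit), sorted by value. The 11 genes in red rose, the 11 in blue fell and the 18 in grey did not pass; RAB27B and RAB1B at -2.38 and -1.60 and RAB23 at 1.47 stand at the ends.

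The 8 samples were also compared in the authors' processed values, which include TRPM2-AS siRNA replicate 3, the sample without a traced signal column. There 21 of the 22 RAB genes passed in the same direction, 0 passed in the opposite direction, and RAB9B did not pass. In replicate 3 itself 21 of the 22 genes lay beyond all 4 control samples on the called side, and RAB9B lay within them. With that column added as its name says, 6 of the 22 still passed (RAB15, RAB23, RAB35, RAB43, RAB5A and RAB9A), and all 22 kept their direction. That column was nearer to the control mean than to the TRPM2-AS siRNA mean in 17 of the 22.

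Promoters are printed for 4 genes because they belong to copies that went opposite ways, RAB27A with RAB27B and RAB5A with RAB5B. They are RefSeq sequences of build GRCh38.p14 around the start of the gene, written 5′ to 3′ on the gene's strand: RAB27A at chr15:55319074-55319373 (minus strand), RAB27B at chr18:54717607-54717906 (plus), RAB5A at chr3:19946847-19947146 (plus) and RAB5B at chr12:55973699-55973998 (plus). Capitals mark matches to any of 6 motifs searched on both strands: AP-1 (TGANTCA), CRE (TGACGTCA), E-box (CACGTG), the ATF4 composite site (TGATGNAA), the CCAAT box (CCAAT) and the NRF1 site. No motif's letters are contained in another's.
RAB27A: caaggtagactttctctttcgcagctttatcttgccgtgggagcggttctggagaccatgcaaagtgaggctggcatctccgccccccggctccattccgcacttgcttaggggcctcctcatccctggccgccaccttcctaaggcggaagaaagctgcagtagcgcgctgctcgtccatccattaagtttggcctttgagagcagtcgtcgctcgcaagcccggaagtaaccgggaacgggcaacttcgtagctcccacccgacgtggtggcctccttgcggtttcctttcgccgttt
RAB27B: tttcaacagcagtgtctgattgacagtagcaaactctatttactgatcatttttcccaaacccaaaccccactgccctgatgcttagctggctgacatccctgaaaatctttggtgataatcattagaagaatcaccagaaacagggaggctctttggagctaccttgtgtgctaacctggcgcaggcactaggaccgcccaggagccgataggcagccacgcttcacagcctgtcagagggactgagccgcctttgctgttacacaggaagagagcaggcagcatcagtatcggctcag
RAB5A: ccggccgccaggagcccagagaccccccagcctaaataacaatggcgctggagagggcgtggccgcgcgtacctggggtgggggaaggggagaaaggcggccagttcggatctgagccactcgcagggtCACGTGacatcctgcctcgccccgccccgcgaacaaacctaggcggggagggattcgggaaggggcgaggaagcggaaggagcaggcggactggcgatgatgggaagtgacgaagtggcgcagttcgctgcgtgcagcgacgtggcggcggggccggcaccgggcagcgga
RAB5B: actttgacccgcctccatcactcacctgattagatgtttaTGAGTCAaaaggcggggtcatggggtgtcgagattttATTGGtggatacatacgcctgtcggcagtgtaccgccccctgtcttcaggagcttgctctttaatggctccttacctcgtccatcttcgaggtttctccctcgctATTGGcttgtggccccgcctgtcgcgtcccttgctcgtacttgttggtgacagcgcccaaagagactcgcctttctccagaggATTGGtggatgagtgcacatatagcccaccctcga

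The RAB5A window holds 1 E-box, and the RAB5B window holds 1 AP-1 match and 3 CCAAT matches. In the RAB27A and RAB27B windows no letters matched these 6 motifs, which says nothing of the factors. Promoters were found for 50 of the 62 RAB genes, 9 of those that rose and 10 of those that fell. The E-box was present in 3 of the 9 (RAB5A, RAB29 and RAB31) and in 1 of the 10 (RAB24), and in 7.43% of 27305 promoters of the same length. AP-1 letters were in 0 of the 9 and 1 of the 10, against 7.76% of all; CCAAT in 2 of the 9 and 2 of the 10, against 35.7%; and NRF1 in 0 of the 9 and 2 of the 10 (RAB1B and RAB35), against 6.28%. CRE letters occurred in 0 of either, against 1.98%, and the ATF4 composite in RAB28 alone among the 19, against 3.67%. The median GC content was 64.3% for genes that rose, 67.0% for those that fell, 68.3% for the 15 that did not pass, 60.9% for the 16 not tested and 58.3% over all promoters. Among the 15 that did not pass, 6 held CCAAT, 3 NRF1, 2 the E-box and 2 AP-1 letters. A match is a description of the letters and not a bound site.

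Counts within a role are read beside the 27.4% of all tested genes that rose and the 29.5% that fell; no role was tested as a group. Of 16 RAB genes of the endoplasmic reticulum and Golgi 8 were tested, and 4 passed as higher (RAB43, RAB6A, RAB30 and, by 1 of its 2 probes, RAB2A), 2 fell (RAB1B and RAB2B) and 2 did not pass, with a median log2 fold change of 0.47. RAB43, which works in transport through the Golgi, had normalized log2 intensities of 7.97, 7.84, 7.70 and 7.60 on control arrays 1 to 4, and of 9.31, 8.84 and 8.83 on TRPM2-AS siRNA arrays 1, 3 and 4. All 3 treated arrays were above every control, and the gene rose 2.32-fold (log2 fold change 1.21 ± 0.15 SE, limma adjusted p = 3.9e-05). That value rests on 1 probe. The other RAB43 probes, annotated to the same transcript, lay near background, with fitted values of 0.20 and 0.08, and were detected on at most 1 array of a group. RAB6A, the main RAB of retrograde traffic from the Golgi, read 8.89, 8.68, 8.65 and 8.84 in the controls and 9.80, 9.64 and 9.44 after TRPM2-AS siRNA. The groups did not overlap, and RAB6A rose 1.82-fold (0.87 ± 0.13 SE, limma adjusted p = 0.000136). A second, dimmer RAB6A probe was detected on 1 of 4 control and 3 of 3 TRPM2-AS siRNA arrays, so it gives no exact size. RAB30, also a Golgi protein, read 7.41, 7.15, 7.14 and 7.40 against 8.07, 7.67 and 8.09, again with every treated array higher, and rose 1.59-fold (limma adjusted p = 0.00175).

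The strongest fall in this class was that of RAB1B, which acts in transport from the endoplasmic reticulum to the Golgi. Its control arrays read 9.21, 9.33, 9.47 and 9.52 and its TRPM2-AS siRNA arrays 7.97, 7.76 and 7.61. That is a 3.04-fold fall with no overlap (log2 fold change -1.60 ± 0.13 SE, limma adjusted p = 1.59e-06; -1.15 and adjusted p = 0.0502 with the untraced column). RAB1A, its close copy, had a log2 fold change of 0.28 and did not pass (limma adjusted p = 0.0583), and RAB6B, the form of RAB6 best known from neurons, had -0.13.

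RAB2A and RAB2B went apart, with a reservation on the first. RAB2B, a Golgi protein, read 10.37, 10.50, 10.30 and 10.27 in controls and 9.96, 9.83 and 9.69 after TRPM2-AS siRNA. Every treated array was lower, a fall of 1.45-fold (limma adjusted p = 0.00243). The RAB2A probe that stands for the gene read 7.66, 7.79, 8.02 and 7.70 against 8.36, 8.39 and 8.59, a rise of 1.57-fold (limma adjusted p = 0.00102). The other RAB2A probe went the opposite way, from 7.88, 7.93, 7.92 and 7.91 in controls to 6.45, 5.996 and 6.21 when treated (log2 fold change -1.69 ± 0.13 SE). Averaging both probes turned the value for RAB2A to -0.52 (limma adjusted p = 0.00189), so no direction can be given for the gene. The first probe was taken for its higher mean over the 7 arrays, but in 3 of the 4 controls the second was the brighter, so that choice followed from the change itself. The first probe is annotated to a RefSeq transcript and the second to a GenBank record outside RefSeq; which transcripts each one binds was not tested.

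**Figure D2:**
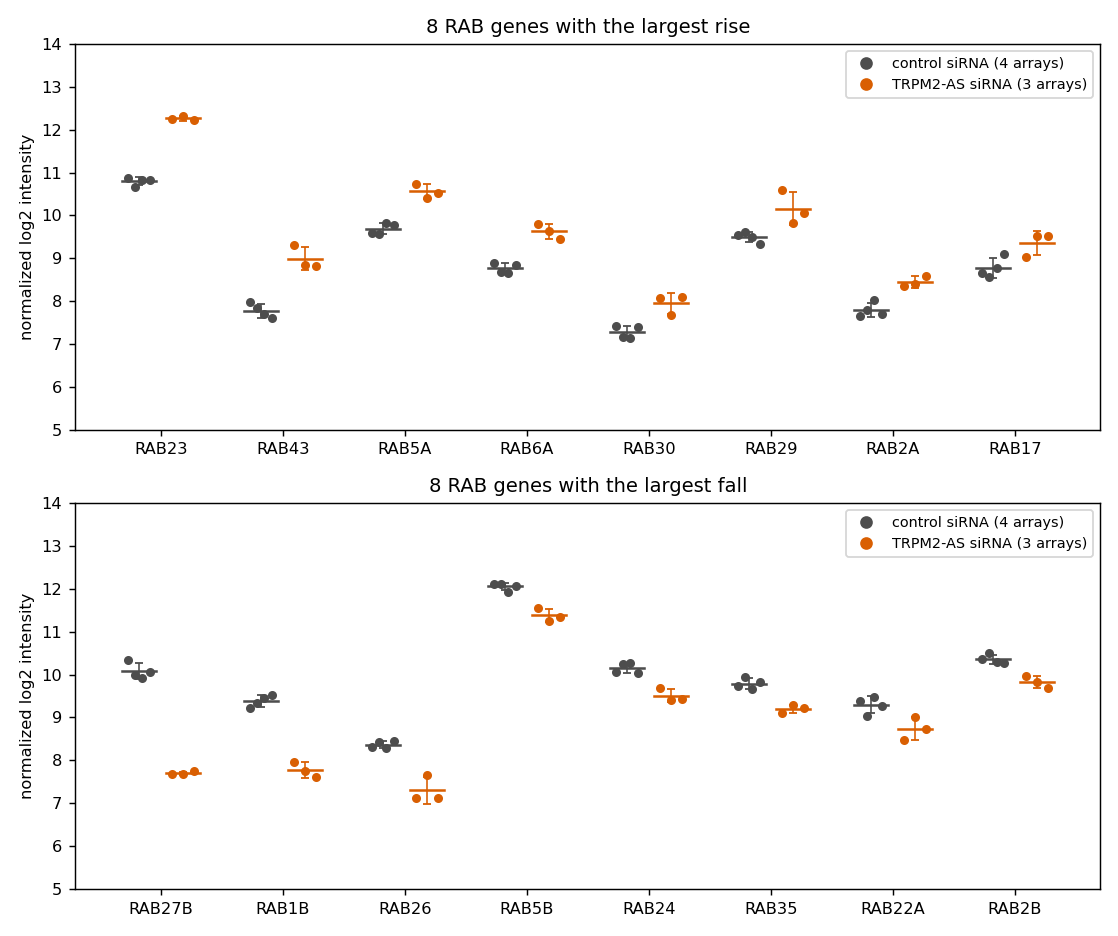
Normalized log2 intensity of the 8 RAB genes with the largest rise (top) and the 8 with the largest fall (bottom), 1 point per array, with the group mean (line) and SD (bar). Control and TRPM2-AS siRNA points are apart in every gene shown except RAB17, where the highest control array reads 9.09 and the lowest treated array 9.02; levels of different genes are not comparable.

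RAB18, which sits on the endoplasmic reticulum and on lipid droplets, was not among the tested genes, because 3 of 3 treated arrays detected it and 0 of 4 controls did. Its probe read 5.03, 5.01, 5.27 and 5.01 on control arrays, all not above background, and 7.15, 7.47 and 6.99 after TRPM2-AS siRNA. Set against the dimmest detected signal of each control array, RAB18 was at least 2.20-fold higher. When detection on 3 arrays sufficed, its limma adjusted p was 4.19e-07; that filter admits it through the treated arrays alone.

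Of 16 early endosomal and recycling RAB genes 13 were tested, of which 4 rose, 3 fell and 6 did not pass (median 0.24). RAB5A, the organiser of early endosome fusion, read 9.59, 9.57, 9.82 and 9.78 in controls and 10.74, 10.41 and 10.52 after TRPM2-AS siRNA. It rose 1.83-fold with the groups apart (log2 fold change 0.87 ± 0.13 SE, limma adjusted p = 0.000127), and it still passed with the untraced column (0.86). RAB5B, from the same subfamily, read 12.12, 12.12, 11.94 and 12.06 against 11.55, 11.24 and 11.36. It fell 1.60-fold, also with no overlap (-0.68 ± 0.12 SE, limma adjusted p = 0.000495). The probes for RAB5C were detected on 0 arrays.

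RAB35, which acts in endocytic recycling and in the last step of cell division, read 9.74, 9.95, 9.67 and 9.82 in controls and 9.10, 9.30 and 9.22 with TRPM2-AS siRNA. It fell 1.50-fold (limma adjusted p = 0.00116), every treated array below every control. RAB22A, an early endosomal relative of RAB5, read 9.38, 9.02, 9.49 and 9.28 against 8.48, 9.01 and 8.73. Its groups nearly met, at 9.02 and 9.01, and it fell 1.47-fold (limma adjusted p = 0.00963). With the untraced column RAB22A had -0.19 (limma adjusted p = 0.699).

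RAB17, an epithelial RAB of apical recycling and transcytosis, read 8.67, 8.56, 8.76 and 9.09 in controls and 9.02, 9.52 and 9.51 after TRPM2-AS siRNA. It rose 1.50-fold (limma adjusted p = 0.0103), although 1 control array exceeded 1 treated array. RAB15, of early and recycling endosomes, rose 1.50-fold (0.58 ± 0.16 SE, limma adjusted p = 0.00989) and RAB31, of transport between the Golgi and endosomes, 1.37-fold (limma adjusted p = 0.00457). Neither gene had overlapping groups, but those of RAB15 nearly met, at 6.49 in controls and 6.53 with TRPM2-AS siRNA, close to background. RAB11A, the principal RAB of recycling endosomes, had a log2 fold change of 0.24 (limma adjusted p = 0.0869; 0.0222 in the authors' values) and RAB11B 0.38 with a spread among controls from 6.48 to 7.59.

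RAB4A, RAB4B, RAB20 and RAB21 did not pass either, at -0.24, 0.24, -0.11 and -0.16. RAB21, an endosomal RAB that binds integrins, rested on 1 array: without TRPM2-AS siRNA array 1, which read 9.76 against 9.03 and 9.17, it had -0.38 (limma adjusted p = 0.0277). Leaving out control array 2 brought RAB4A to -0.30 (limma adjusted p = 0.0462). RAB14 and RAB25, also of recycling endosomes, were detected on 0 arrays.

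Among RAB genes of late endosomes, lysosomes and related organelles 8 of 11 were tested; 2 rose, 3 fell and 3 did not pass (median -0.12). RAB29, which recruits the kinase LRRK2 to membranes, read 9.55, 9.61, 9.50 and 9.32 in controls and 10.59, 9.82 and 10.06 with TRPM2-AS siRNA. All 3 treated arrays were above the controls, a rise of 1.58-fold (0.66 ± 0.17 SE, limma adjusted p = 0.00593). RAB24, linked to autophagy, read 10.07, 10.25, 10.28 and 10.03 against 9.69, 9.40 and 9.44, a fall of 1.57-fold without overlap (limma adjusted p = 0.000932). Its 5 probes all fitted lower values with TRPM2-AS siRNA, from -0.65 to -1.08, and 2 of them were detected on 3 control arrays and 0 treated arrays.

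RAB7A, the central RAB of fusion with lysosomes, fell 1.37-fold (-0.46 ± 0.11 SE, limma adjusted p = 0.0043), from between 12.03 and 12.16 to between 11.50 and 11.75. RAB9A, which returns receptors from late endosomes to the Golgi, rose 1.38-fold (limma adjusted p = 0.0102), from between 9.95 and 10.26 to between 10.33 and 10.72. RAB9B, its copy, had -0.32 (limma adjusted p = 0.0195) close to background, at 6.62 to 6.73 against 6.35 to 6.39. That call was lost in the authors' values (-0.12), without background correction (-0.15), and without control array 3 (limma adjusted p = 0.0562) or TRPM2-AS siRNA array 4 (0.0586). RAB32, of melanosomes and mitochondria, had 0.04, RAB12 -0.18 and RAB34 -0.06. RAB7B, RAB36 and RAB38 were detected on 0 arrays.

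Of the 12 RAB genes of exocytosis and the plasma membrane 7 were tested, and 2 fell, 0 rose and 5 did not pass (median -0.10, highest value 0.22), beside 29.5% lower and 27.4% higher among all genes. RAB27A, detected on treated arrays alone, could not enter this count. The largest fall of any RAB gene was that of RAB27B, which docks secretory granules and exosome-bearing endosomes at the plasma membrane. RAB27B read 10.35, 9.98, 9.92 and 10.06 on control arrays and 7.67, 7.68 and 7.74 on TRPM2-AS siRNA arrays. The groups were more than 2 log2 units apart, and the fall was 5.21-fold (log2 fold change -2.38 ± 0.13 SE, limma adjusted p = 9.39e-08). In the authors' values of all 8 samples it was -1.93 (limma adjusted p = 2.39e-11). With the untraced column, which read 10.75 after joint normalization against a control mean of 10.13, it was -1.63 (limma adjusted p = 0.0742). The other 2 RAB27B probes, on the RefSeq transcript, were detected on 0 arrays, so the value rests on 1 probe annotated to a GenBank record.

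RAB27A, which serves the same secretory steps, was detected on 3 treated arrays and 0 controls, by 1 of its 4 probes. That probe read 5.93, 5.02, 5.28 and 5.29 on controls, all not above background, and 7.09, 7.05 and 7.40 after TRPM2-AS siRNA. RAB27A was at least 2.17-fold higher, whereas RAB27B fell. The filter that admitted RAB18 also admitted RAB27A, in the same way (limma adjusted p = 1.68e-05). Its other 3 probes, designed on further transcripts, were detected on 0 arrays.

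RAB26, of regulated secretion, read 8.31, 8.44, 8.28 and 8.45 in controls and 7.12, 7.66 and 7.12 with TRPM2-AS siRNA, below all controls. It fell 2.10-fold (-1.07 ± 0.15 SE, limma adjusted p = 8.7e-05), and had -0.52 (limma adjusted p = 0.425) with the untraced column, which read 9.58. RAB3B, a RAB of vesicle exocytosis, had -0.01, RAB10 -0.10, RAB13 of tight junctions -0.12 and RAB8B -0.04. RAB8A, of transport to the cell surface and cilium, had 0.22 (limma adjusted p = 0.212), and 0.37 (adjusted p = 0.0311) without TRPM2-AS siRNA array 1. RAB3D, of secretory granules, was detected on 2 control arrays and 0 treated ones, so no size or bound is given. Its probe read 5.65, 6.38, 6.17 and 6.56 in controls and 5.26, 4.99 and 5.43 with TRPM2-AS siRNA. RAB3A, RAB3C and RAB37 were detected on 0 arrays.

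RAB23, known in mouse as a brake on Hedgehog signalling and for its work at the cilium, had the largest rise of the tested RAB genes. It read 10.88, 10.66, 10.82 and 10.82 on control arrays and 12.26, 12.32 and 12.22 on TRPM2-AS siRNA arrays. The groups were far apart relative to their spread (SD 0.09 and 0.05), and the rise was 2.76-fold (log2 fold change 1.47 ± 0.11 SE, limma adjusted p = 9.19e-07). A second RAB23 probe detected on all 7 arrays rose by 1.53, the authors' values gave 1.41, and the call held with the untraced column (limma adjusted p = 0.00967). The remaining RAB23 probes were detected on 0 arrays, with fitted values of 0.35 and 0.09. RAB28, also of cilia, had -0.34 (limma adjusted p = 0.0341), and its second probe -0.51. That call did not last without control array 1, 3 or 4 or TRPM2-AS siRNA array 3 or 4 (limma adjusted p from 0.0517 to 0.151), with values of -0.24 to -0.37. RAB40B and RAB40C, which join a RAS-like domain to a ubiquitin ligase box, had -0.19 and 0.13 and did not pass.

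RAB genes with the same number were set side by side. Over the 9 pairs with the same number and both members tested, 3 pairs passed in opposite directions (RAB2A with RAB2B, RAB5A with RAB5B, and RAB9A with RAB9B) and 0 pairs passed in the same direction. Of these 3, RAB5A and RAB5B kept both calls in all 27 alternatives other than the untraced column and the test against a fold of 1.2, RAB2A turned with the mean of its probes, and RAB9B lost its call in 18 of all 29. The log2 difference of first minus second member within an array changed by 1.89 for RAB1A and RAB1B, from a mean of -0.20 ± 0.11 (SD, n = 4) to 1.69 ± 0.04 (SD, n = 3). For RAB2A and RAB2B it changed by 1.18 with the RAB2A probe that stands for the gene, while the other RAB2A probe fell (-1.69). It changed by 1.55 for RAB5A and RAB5B and by 0.99 for RAB6A and RAB6B. For RAB9A and RAB9B it changed by 0.79 and for RAB4A and RAB4B by -0.48. In these 6 pairs the 2 groups of arrays did not overlap in that difference. In RAB8A and RAB8B, RAB11A and RAB11B, and RAB40B and RAB40C they did overlap. These within-array differences were not tested. How many arbitrary pairs of genes would pass in opposite directions, or not overlap in that difference, was not computed. Of single tested genes 57.3% had groups apart, so the counts of pairs are not read as a trait of copies. Probes of close copies may bind both transcripts, which was not tested.

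**Figure D3:**
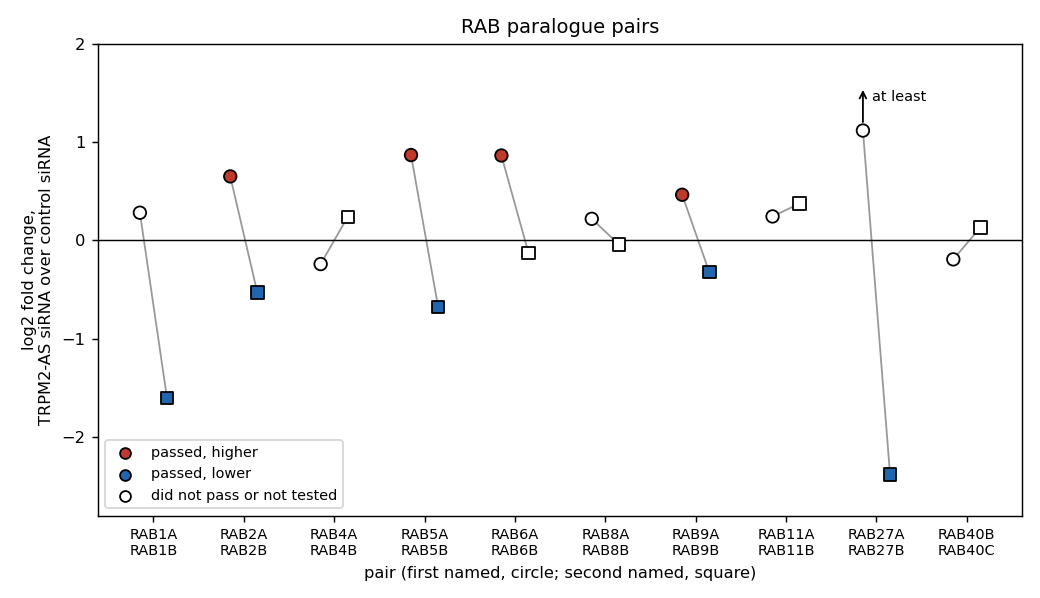
Log2 fold change (y axis) of both members of 10 RAB pairs; circles are the first-named and squares the second-named copy, red and blue passed, white did not pass or was not tested. The RAB27A circle stands at its lower bound (at least 2.17-fold) beside RAB27B at -2.38, and the RAB2, RAB5 and RAB9 pairs have 1 red and 1 blue member. RAB2A is drawn from the probe that stands for it, and its other probe fell.

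Single genes of the 40 without overlap between the groups numbered 25 (62.5%), close to the 57.3% of all genes. Of these 13 were higher and 12 lower with TRPM2-AS siRNA. Groups were apart in 4 genes that did not pass, RAB1A, RAB4A, RAB4B and RAB11A. The 22 genes that were not tested include 18 detected on 0 arrays of either group. Besides those already named these are RAB19, RAB33A, RAB39A, RAB39B, RAB40A, RAB41, RAB42, RAB6C and RAB6D. RAB33B was detected on 1 array of each group. A gene whose probes were detected on 0 arrays is not thereby shown to be silent. RAB23 and RAB27B also have probes detected on 0 arrays, beside a probe detected on every array.

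**Figure D4:**
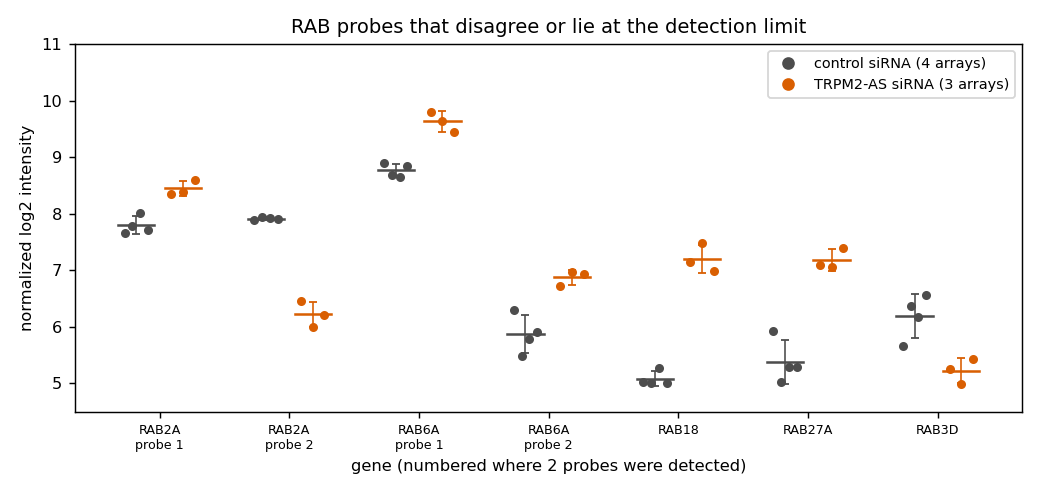
Normalized log2 intensity per array, with group mean and SD, for RAB probes that disagree or lie near the detection limit; a number marks the probe where 2 probes of a gene were detected. The RAB2A probes move in opposite directions, both RAB6A probes move up, and RAB18 and RAB27A rise from controls that were not above background. RAB3D was above background on 2 of the control arrays only.

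From 8 lists with 166 genes that load, switch or read RAB proteins, 119 were tested, of which 35 rose (29.4%) and 36 fell (30.3%), with a median log2 fold change of -0.01. These shares lie near the 27.4% and 29.5% of all tested genes, and no list was tested as a group. Exchange factors load GTP onto RAB proteins, and 8 of 22 tested rose and 5 fell (median 0.13). SBF2, a myotubularin relative with a DENN domain, stayed not above background on all 3 treated arrays, a level at least 2.23-fold lower; it entered the test through the control arrays alone. RIN1, a RAS-regulated activator of RAB5, fell 2.76-fold (limma adjusted p = 1.08e-05), while RIN2, another activator of RAB5, rose 1.91-fold. CCZ1, of the complex that activates RAB7, rose 1.92-fold; its probe may also bind the copy CCZ1B. In the TRAPP complexes, which activate RAB1 and RAB11, 1 of 14 tested genes rose and 4 fell (median -0.17), the second share being close to the 29.5% of all genes. The falls were in TRAPPC9 (3.07-fold, limma adjusted p = 1.04e-05), TRAPPC1 (1.37-fold), TRAPPC2 (1.35-fold) and TRAPPC4 (1.32-fold).

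GTPase-activating proteins, which switch RAB proteins off, had 7 of 27 higher and 9 lower (median -0.22). TBCK, a protein with a TBC domain, was likewise not above background there, at least 2.51-fold lower, and was tested through the control arrays alone. EVI5, which acts on RAB11, fell 2.68-fold (limma adjusted p = 1.13e-06), TBC1D13, which acts on RAB35, 2.49-fold and the centrosomal TBC1D31 1.88-fold. For prenylation and membrane recycling 5 of 9 genes were tested. RABGGTB, the beta subunit of the enzyme that prenylates RAB proteins, rose 1.63-fold (limma adjusted p = 0.00104), and ARL6IP5, a relative of the prenylated RAB acceptor, fell 2.58-fold. RABAC1, GDI2 and RABGGTA did not pass (0.18, -0.14 and -0.15).

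Effectors had 14 of 35 higher and 10 lower (median 0.23). KIF20A, the mitotic kinesin first found as a RAB6 partner, fell 8.70-fold (limma adjusted p = 7.41e-09). RAB11FIP2, which joins RAB11 to the motor myosin Vb, rose 3.25-fold (1.70 ± 0.11 SE, limma adjusted p = 2.96e-07). FYCO1, which couples RAB7 vesicles to kinesin, fell 4.70-fold (limma adjusted p = 3.28e-07), and MICALL1, an effector of RAB8 and RAB35 on recycling tubules, also fell but was detected on 2 of 3 treated arrays. Subunits of 1 tether did not move as 1 group. In the exocyst, which ties secretory vesicles to the plasma membrane, EXOC2 (1.74-fold) and EXOC1 (1.44-fold) rose while EXOC5 and EXOC4 fell, and 2 of 7 rose and 3 fell in all. EXOC5 was detected on 2 and EXOC4 on 1 of the 3 treated arrays, so no exact size is given for either. In the HOPS and CORVET tethers of late and early endosomes 2 of 8 were higher and 3 lower. VPS33A (1.71-fold) and VPS18 (1.67-fold) rose, and VPS16 (2.18-fold) and the CORVET subunit TGFBRAP1 (1.76-fold) fell. The groups overlapped in TGFBRAP1 (control SD 0.54, limma adjusted p = 0.0178). PPM1H, the phosphatase that reverses RAB phosphorylation by LRRK2, fell 1.74-fold (limma adjusted p = 0.00036), and LRRK1 and LRRK2 were not tested.

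**Figure D5:**
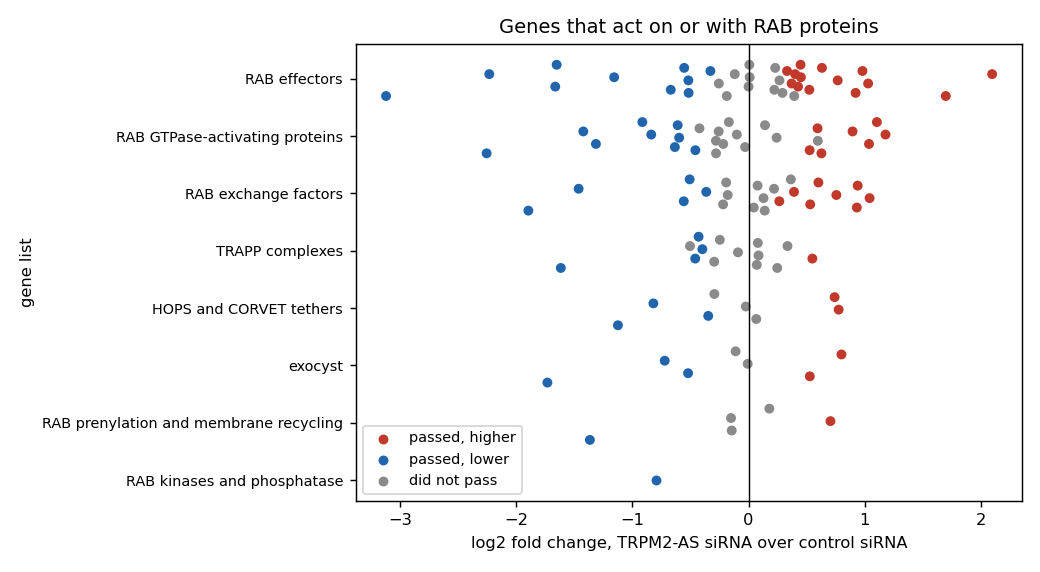
Log2 fold change (x axis) of the 119 tested genes that act on or with RAB proteins, by list, 1 point per gene; red rose, blue fell and grey did not pass, and the vertical jitter has no meaning. Every list of more than 1 gene has points on both sides of 0, and KIF20A is the lowest point, at -3.12; SBF2 and TBCK are drawn at their fitted values, which are not bounds.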

How the data were processed

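The first deposited table holds non-normalized probe intensities with a detection p-value beside each (BeadStudio, per the submitters' processing notes, which name no version). The second holds the authors' processed intensities, which share 1 distribution; limma is named without a version. Of the 8 signal columns, 1 matched no sample and was left out, as the rule for these members states. Signals were corrected with limma 3.58.1 (R 4.3.3) by the normal-exponential model using the detection p-values, offset 16, then quantile normalized, and logarithms to base 2 (log2) were taken. The probe with the highest mean stood for a gene. Of the probes, 28094 had 1 gene name, 13 several and 20691 none. Groups were compared with lmFit and eBayes, two-sided. Quantile normalization hides a shift of all genes together. The number of arrays limits the precision (median SE 0.13 for RAB genes). A bound compares the bright group's mean with, per dim array, the higher of the dimmest detected signal and the probe's own. Bounds are given only where every array of the bright group detected the probe. The fit was also run on simulated data with independent noise and few changed genes. Those settings differ from these data, so that run says nothing of how the samples were replicated. Members, lists and tests were chosen with earlier results of these data known. Every tested RAB gene is named, with array values for the 8 largest rises and the 8 largest falls. Array values are also given for RAB18, RAB27A and RAB3D, each detected in 1 group alone. Up to 4 genes per list are named by smallest p. Alternatives covered background, normalization, filter, probes, variance model, weights, authors' values, pairing, each array left out and a fold of 1.2; leaving out each sample of the authors' values was added after seeing the data. Paralogue pairs, motifs and the promoters shown were chosen after values were seen.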

Additional observations from a re-analysis of the deposited data

How the results depend on the processing

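The number of RAB genes that changed lay within 1.5 times the 22 given in 27 of 29 alternatives. With the untraced column 8 passed, 7 higher and 1 lower, of 42 tested. RAB18 and RAB27A were among the higher ones, and the filter admitted both through columns named TRPM2-AS siRNA alone. In that setting 26 genes of the RAB machinery lists and 2450 of all genes passed. Against a fold of 1.2, 12 RAB genes (6 higher and 6 lower), 39 machinery genes and 3373 of all genes passed. Leaving out each array gave 20 to 24 RAB genes (11 to 12 higher, 9 to 12 lower), 61 to 66 machinery genes and 4716 to 5072 of all genes. Leaving out each sample of the authors' values, an alternative chosen after seeing the data, gave 20 to 29 RAB genes (11 to 15 higher, 9 to 14 lower), 67 to 74 machinery genes and 5322 to 5901 of all genes. RAB9B lost its call in all 8 of these runs (-0.11 to -0.16) and RAB28 in 3, while without TRPM2-AS siRNA replicate 1 RAB8A, RAB8B, RAB10, RAB11A, RAB21, RAB32, RAB40C and RAB4A passed besides. With the replicate number as a block on the authors' values, 23 RAB genes passed (13 higher and 10 lower), against 22 without it; RAB8A was gained (0.24, limma adjusted p = 0.0405). Deviations from the group means correlated at -0.07 to 0.37 between samples with the same replicate number. Samples with different numbers were not compared, so whether the numbers pair the samples cannot be told from this. With the block 6010 of all genes passed, against 5705 without it. Of the 22, 19 kept call and direction in all 27 alternatives other than the untraced column and the fold test; RAB28, RAB9B and RAB2A did not. RAB2A turned to -0.52 with the mean of its probes. Signs also turned among genes that had not passed. RAB20 had 0.049 with array weights, 0.014 in the authors' values with or without the block, and -0.25 to 0.15 with single arrays or samples left out. RAB32 had -0.038 with the untraced column and -0.061 to 0.24 with single ones left out. RAB34 had 0.067 and -0.15 to 0.025, and RAB8B 0.14 and -0.24 to 0.12, in the same 2 settings. RAB3B had 0.0050 with cyclic loess, 0.060 with array weights and -0.12 to 0.11 with single ones left out. The cause of these shifts was not tested. Signals near background limit RAB9B, RAB15, RAB20, RAB18 and RAB27A.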
